A study of Mus musculus with 6 samples.

Results

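Potassium channels that open on calcium or sodium, and the KCNQ channels of the M-current, were examined in ribosome-bound RNA of parvalbumin neurons from mice with or without Fxr1. The set holds 9 genes, chosen by symbol as the rows Kcnma1, Kcnmb4, Kcnn1, Kcnn2, Kcnn3, Kcnt1, Kcnt2, Kcnq3 and Kcnq5 of a table of 23306 rows. All 9 were found, and all 9 passed the filter on low counts, which left 12449 genes to test. No member passed the test between the genotypes, and their order of abundance was led by the BK channel gene Kcnma1.

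The mice were male, of strain C57BL6, and carried a Pvalb promoter-driven Cre together with the RPL22HA allele, which tags a ribosomal protein with haemagglutinin in cells where Cre has acted (PV-Cre::RiboTag). In the Fxr1 conditional knockout the same PV-Cre removed Fxr1, the gene of an RNA-binding protein related to the fragile X protein FMRP; the other group was wild type for Fxr1. Ribosomes were pulled down from frontal cortex, so that the reads come from RNA held by tagged ribosomes and from whatever RNA the pull-down carried along. Of 6 libraries in the series, 4 were used, 2 per genotype, namely replicates 2 and 3 of the wild type and replicates 1 and 3 of the knockout. The labels do not tie the libraries to single animals, so each p-value measures the spread between libraries, part of which may be technical, and fewer cells of a type cannot be told apart from less bound RNA per cell.

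BK channels, whose pore is made by Kcnma1, need depolarisation and calcium together; they shorten the action potential and drive the fast dip after it. SK channels (Kcnn1, Kcnn2, Kcnn3) sense calcium through bound calmodulin and set slower pauses between spikes, while Slack and Slick (Kcnt1 and Kcnt2) open when sodium enters. KCNQ channels (Kcnq3, Kcnq5 and relatives) carry the M-current, a slow brake on firing that muscarinic receptors release by depleting the membrane lipid PIP2. FMRP is known to bind the neuronal BK subunit made by Kcnmb4 and the Slack channel, which is the background to asking whether the loss of its relative FXR1 left a mark on the transcripts of these channels.

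The 8 pore-forming members, KCNQ genes included, share a signature, a glycine, a tyrosine or phenylalanine and a glycine in the ion filter, followed by an acidic residue. It was found by translating the principal GENCODE M21 transcript of each gene, and was present in the principal transcript of 1.68% of 21537 protein-coding genes read the same way. Stretches of 57 coding bases around it are shown for 5 of them because they set the families apart at a glance, with the 3 signature codons in capitals. The middle codon reads phenylalanine in Kcnt1 and Kcnt2 and tyrosine in the BK and SK genes shown. Kcnmb4, an accessory subunit with no pore, held no signature. In mm10 the stretches lie at chr14:23528389-23528445 (Kcnma1, minus strand), chr8:70850633-70850689 (Kcnn1, minus), chr3:89645494-89645550 (Kcnn3, plus), chr2:25894349-25894405 (Kcnt1, plus) and chr1:140425260-140425316 (Kcnt2, plus), each within a single coding exon.
Kcnma1: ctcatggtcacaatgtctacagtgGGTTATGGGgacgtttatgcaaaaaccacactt
Kcnn1: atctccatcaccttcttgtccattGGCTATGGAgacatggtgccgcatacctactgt
Kcnn3: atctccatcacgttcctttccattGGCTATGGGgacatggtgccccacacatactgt
Kcnt1: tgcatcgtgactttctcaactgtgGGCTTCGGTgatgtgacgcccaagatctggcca
Kcnt2: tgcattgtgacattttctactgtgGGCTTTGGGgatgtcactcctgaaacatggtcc

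Within families these stretches matched at 87.7% of bases (Kcnn1 and Kcnn3) and 73.7% (Kcnt1 and Kcnt2). Between Kcnma1 and the other members shown the match ranged from 47.4% to 59.6%. Over the whole coding sequences, pairs within the SK, Slack and KCNQ families were compared, and pairs across families were not. The longest identical run among the pairs compared was 26 bases, between Kcnn1 and Kcnn3. The Slack pair shared at most 23 identical bases in a row, the Kcnn2 and Kcnn3 pair 20, and the Kcnn1 and Kcnn2 pair 14.

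The 4 libraries held 9696126 to 10301280 counts. Levels are given as CPM, each count divided by the total of its library, on a common scale, with the wild type replicates in the order 2, 3 and the knockout replicates in the order 1, 3. Fxr1, the targeted gene, stood at 98.4 and 101 CPM in wild type against 17.8 and 18.7 CPM in knockout, in the direction of the labels. Of the 10 parvalbumin neuron markers looked up all were present, and none of the 10 passed the test. Their summed level of 10435 to 10926 CPM was higher in both wild type libraries than in either knockout library. Gad1, the largest part of the sum, showed this order (4354 and 4295 against 4245 and 4048 CPM), as did Pvalb, Gad2 and Erbb4. Lhx6 showed the reverse (170.8 and 172.5 against 174.5 and 173.8 CPM). Kcnc1, Kcnc2, Tac1, Syt2 and Cox6a2 overlapped between the genotypes. Among all tested genes with a unique symbol, 15.3% had non-overlapping genotypes with the knockout lower. Markers of other cells were present at lower levels and overlapped between the genotypes: 8 excitatory neuron markers summed to 891 to 981 CPM, 6 astrocyte markers to 503 to 596 CPM and 6 oligodendrocyte markers to 261 to 371 CPM. The 5 somatostatin neuron markers summed to at most 60.9 CPM and the 5 VIP neuron markers to at most 49.99 CPM. Knockout replicate 3 held the highest sum for 7 of the 9 lists of other cells, among them the oligodendrocyte list with 371 CPM against 261 to 289 CPM in the other libraries. Whether these other cells contributed to the channel levels was not tested.

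Kcnma1, which makes the BK pore, was the most abundant member. It stood at 312 and 324 CPM in wild type against 313 and 332 CPM in knockout, from 3021 to 3414 counts per library. The genotypes overlapped, with knockout replicate 1 lying between the wild type libraries. The means were 318 ± 8.82 CPM (SD, n = 2) for wild type and 322 ± 13.4 CPM (SD, n = 2) for knockout. Fitted over all genes, the log2 fold change of knockout against wild type was 0.02 (SE 0.07), with a 95% interval from 0.919-fold to 1.12-fold. Kcnma1 lies on mm10 chromosome 14 at 23289431 to 24014491, on the minus strand, and is annotated with 38 transcripts; the counts are per gene and do not separate its many splice forms.

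Kcnmb4 encodes the β4 subunit, the main neuronal BK accessory protein, which slows the gating of the channel. It stood at 25.5 and 26.1 CPM in wild type against 25.7 and 23.7 CPM in knockout, again with knockout replicate 1 between the wild type libraries and knockout replicate 3 the lowest. The log2 fold change was −0.06 (SE 0.12), with a 95% interval from 0.802-fold to 1.14-fold. Per kilobase of exon, the scale on which genes are compared here, the ratio of Kcnmb4 to Kcnma1 was 0.418 and 0.412 in wild type and 0.419 and 0.365 in knockout. Knockout replicate 3 had the lowest ratio. The exact 95% Poisson intervals of the Kcnmb4 counts overlapped between the knockout libraries, at 22.65 to 28.98 CPM (replicate 1) and 20.83 to 26.89 CPM (replicate 3). An exact permutation test of the ratio gave a two-sided p of 1. A design of 2 against 2 libraries cannot go below 0.33 and so cannot show a difference at 0.05. The gene lies on chromosome 10 at 116417861 to 116473878, and 20.85% of its exon bases are shared with the antisense gene Kcnmb4os2 and 10.68% with Kcnmb4os1; without knowledge of the strand setting used in counting, reads of these cannot be told from those of Kcnmb4.

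Other BK subunits were read from a fixed list. Kcnmb2, a β subunit that inactivates the channel, stood at 24.8 and 25.1 CPM in wild type against 19.3 and 23.9 CPM in knockout, a log2 fold change of −0.21 (SE 0.13) that did not pass the test (adjusted p = 0.998 by edgeR). Per kilobase of all annotated exons its mean was 7.44 ± 0.867 CPM (SD, n = 4). Its libraries ran from 6.163 to 8.038 CPM per kilobase, a wider range than that of Kcnmb4 (7.135 to 7.856), which lay inside it. Among the γ subunits, which ease BK opening at low calcium, Lrrc38 stood at 14.7 ± 1.07 CPM per kilobase and Lrrc55 at 0.913 ± 0.0666. The other γ subunit genes Lrrc26 and Lrrc52 held 5 and 4 counts over the 4 libraries together. Kcnmb1, the smooth muscle β subunit, held 4 counts, all in wild type replicate 2, and Kcnmb3 held 0, which allows up to 0.0742 CPM (3 counts over the 4 libraries). Lingo1, which makes another BK-associated membrane protein, had a log2 fold change of −0.06 (SE 0.11). Of the 8 genes on this list 4 could be tested, 1 higher and 3 lower in knockout, and 0 passed.

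**Figure D1:**
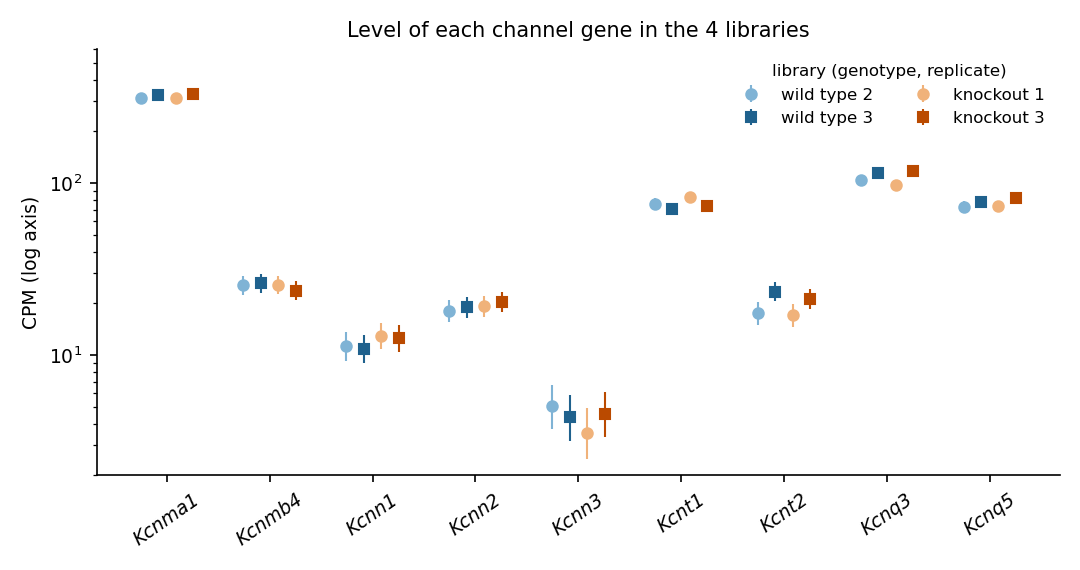
CPM of the 9 channel genes on a log axis, one point per library (circles: wild type replicate 2 and knockout replicate 1; squares: wild type replicate 3 and knockout replicate 3), with exact 95% Poisson intervals of each count. Kcnma1 sits near 320 CPM and Kcnn3 near 4.38 CPM, and the libraries of the genotypes overlap for every gene except Kcnn1 and Kcnn2.

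The SK genes were the least abundant family. Kcnn1 (SK1) stood at 11.2 and 10.9 CPM in wild type against 13.0 and 12.5 CPM in knockout, so that both knockout libraries lay above both wild type libraries. With 109 to 132 counts per library, the exact 95% Poisson intervals of the 4 libraries overlapped one another, and these cover counting error only. The log2 fold change was 0.21 (SE 0.17), with a 95% interval from 0.913-fold to 1.46-fold, and the gene did not pass (edgeR, adjusted p = 0.998). The gene lies on chromosome 8 at 70842049 to 70863258.

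Kcnn2 (SK2) showed the same order, with 18.05 and 18.9 CPM in wild type below 19.3 and 20.4 CPM in knockout. Its log2 fold change was 0.10 (SE 0.14), with a 95% interval from 0.883-fold to 1.30-fold; leaving out the wild type libraries in turn gave 0.06 (replicate 2 omitted) and 0.15 (replicate 3 omitted). Kcnn1 and Kcnn2 were thus the 2 of 9 members whose genotypes did not overlap, both higher in knockout. Among all tested genes with a unique symbol, 30.2% had genotypes that did not overlap, 14.8% with the knockout higher and 15.3% with it lower, so the members' count is near the background and is no result about them.

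Kcnn3 (SK3) was the rarest member, at 5.05 and 4.37 CPM in wild type against 3.54 and 4.57 CPM in knockout, from 36 to 49 counts per library. Its genotypes overlapped. At this depth a single library carried a counting error of up to 16.7%, and the log2 fold change of −0.21 (SE 0.27) had a 95% interval as wide as 0.591-fold to 1.26-fold. It was −0.05 without knockout replicate 1 and −0.39 without knockout replicate 3, and lay at −0.11 and −0.31 without wild type replicates 2 and 3. Within the SK family, Kcnn1, Kcnn2 and Kcnn3 took 46.5% ± 1.98, 46.0% ± 1.24 and 7.55% ± 1.30 of the summed level per kilobase of all annotated exons (SD, n = 4). With the longest transcript as the length the shares became 33.9% ± 1.67, 60.01% ± 1.18 and 6.10% ± 1.04, so that the near-equal shares of Kcnn1 and Kcnn2 rest on the length used. Kcnn4, the intermediate-conductance relative known from blood and epithelial cells, held 0 counts in all 4 libraries.

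Casein kinase 2 and protein phosphatase 2A, which act on the SK channel complex in opposite directions, were on the list of SK partners. Csnk2a2 had the smallest p of the list, with 26.1 and 31.7 CPM in wild type against 26.5 and 23.4 CPM in knockout (log2 fold change −0.21, SE 0.13), followed by Csnk2b at −0.14 (SE 0.09). Of the 9 genes 8 were tested, 3 higher and 5 lower in knockout, with 0 past the threshold and 0 at an unadjusted p under 0.05.

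Kcnt1 encodes Slack, and was the more abundant of the sodium-activated pair. It stood at 76.0 and 70.3 CPM in wild type against 82.5 and 74.1 CPM in knockout, so that knockout replicate 3 lay between the wild type libraries and the genotypes overlapped. The log2 fold change was 0.10 (SE 0.09), with a 95% interval from 0.942-fold to 1.22-fold. It fell to 0.00653 without knockout replicate 1 and reached 0.19 without knockout replicate 3, so its size rested on which knockout library was kept. The gene lies on chromosome 2 at 25863734 to 25918273.

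Kcnt2, which encodes Slick, stood at 17.5 and 23.4 CPM in wild type against 17.1 and 21.2 CPM in knockout. The split ran within the genotypes: the exact 95% Poisson intervals of the 2 wild type libraries, 15.0 to 20.4 CPM and 20.5 to 26.5 CPM, did not overlap. The log2 fold change was −0.10 (SE 0.15), with a 95% interval from 0.749-fold to 1.16-fold, and its direction turned on leaving out wild type replicate 3 (0.14) or knockout replicate 1 (0.03). The ratio of Kcnt2 to Kcnt1 per kilobase was 0.318 and 0.459 in wild type and 0.286 and 0.394 in knockout, again wider within a genotype than between the means. An exact permutation test of the genotypes gave a two-sided p of 0.667, with the same lower limit of 0.33. The sodium channel genes that could feed Slack, 9 in the fixed list, were all tested, 3 higher and 6 lower in knockout. None passed; Scn2b, an accessory subunit, stood at 394 and 408 CPM in wild type against 423 and 463 CPM in knockout (a log2 difference of 0.14, SE 0.07, with an adjusted p of 0.998 by edgeR), and Scn3b had a log2 fold change of −0.26 (SE 0.17).

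Kcnq3, which pairs with other KCNQ subunits to form the M-channel, stood at 104 and 115 CPM in wild type against 97.0 and 118 CPM in knockout. The knockout libraries were the lowest and the highest of the 4, and their exact 95% Poisson intervals, 91.0 to 103 CPM and 111 to 125 CPM, did not overlap. The log2 fold change was −0.03 (SE 0.09), with a 95% interval from 0.861-fold to 1.12-fold. Its direction turned on leaving out wild type replicate 3 (0.05) or knockout replicate 1 (0.09). Kcnq3 lies on chromosome 15 at 65986387 to 66286642.

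Kcnq5 stood at 72.7 and 77.6 CPM in wild type against 73.5 and 81.5 CPM in knockout, with overlapping genotypes. Its log2 fold change was 0.04 (SE 0.09), with a 95% interval from 0.908-fold to 1.17-fold. Per kilobase the ratio of Kcnq5 to Kcnq3 was 1.33 and 1.29 in wild type and 1.45 and 1.32 in knockout, with an exact two-sided permutation p of 0.667 under the same limit. The gene lies on chromosome 1 at 21398403 to 21961942.

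Kcnq1, the cardiac and epithelial member of the family, held 5 counts over the 4 libraries. The KCNE accessory genes were at or near 0, with 1 count for Kcne1, 2 each for Kcne2, Kcne3 and Kcne5, and 20 for Kcne4. The spectrin gene Sptbn4, part of the scaffold that holds KCNQ channels at the axon initial segment, stood at 362 and 373 CPM in wild type against 414 and 402 CPM in knockout; its log2 fold change of 0.15 (SE 0.07) missed the threshold (edgeR, adjusted p = 0.998). Nedd4l, a ubiquitin ligase of KCNQ channels, had a log2 fold change of 0.04 (SE 0.08). Of the 12 listed relatives and partners 5 were tested, 3 higher and 2 lower, and 0 passed.

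Muscarinic receptors, their G proteins, phospholipase C and the kinases that make PIP2 set the M-current. Of 13 listed genes 12 were tested, 9 higher and 3 lower in knockout, with a median log2 fold change of 0.02 beside −0.00146 for all tested genes, and 0 passed. The muscarinic receptor gene Chrm1 stood at 79.0 and 73.5 CPM in wild type against 81.1 and 76.9 CPM in knockout. The smallest p values of the list belonged to the kinase gene Pip5k1c (log2 fold change 0.10, SE 0.07) and the G protein gene Gna11 (0.11, SE 0.09). In both, the knockout libraries lay above the wild type libraries, as they did for Gnaq, while for the kinase gene Pip5k1a they lay below. These 4 of the 12 tested genes had genotypes that did not overlap, near the share of 30.2% over all tested genes.

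Compared per kilobase of exon over the 4 libraries, Kcnma1 led with 18.9 ± 0.568 CPM per kilobase (SD, n = 4), above 82.3% of 11706 tested genes with a known length. Kcnq5 followed at 9.92 ± 0.526, and the libraries of these 2 genes overlapped neither with each other nor with the next. Kcnt1 (7.97 ± 0.539), Kcnmb4 (7.59 ± 0.317) and Kcnq3 (7.38 ± 0.655) overlapped as neighbours and were not told apart by their spread. A lower tier held Kcnt2 (2.87 ± 0.437), Kcnn1 (2.60 ± 0.221) and Kcnn2 (2.57 ± 0.131), which also overlapped. Kcnn3 stood last at 0.419 ± 0.0604 CPM per kilobase, above 6.46% of the tested genes. Kcnma1 thus stood 44.9 times above Kcnn3.

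These levels rest on the exon length used. With the longest transcript in place of all annotated exons, Kcnmb4 moved to 15.5 CPM per kilobase and the second rank, and Kcnn2 to 5.21 CPM per kilobase and the sixth rank, 2.04 and 2.03 times their values above. Kcnt1 then stood above Kcnq5. Kcnma1 kept the first rank and Kcnn3 the last, and the other members changed by at most 1.43 times.

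Summed by family on the same scale, BK genes took 44.5% and 44.21% of the set in wild type and 44.16% and 43.0% in knockout, so that both knockout libraries lay below both wild type libraries, with a difference of −0.781 percentage points between the means. KCNQ genes took 28.3% and 29.4% in wild type and 27.3% and 29.98% in knockout, and Slack genes 18.04% and 17.7% against 18.9% and 17.5%. The SK share was 9.15% and 8.73% in wild type and 9.71% and 9.51% in knockout, so that both knockout libraries lay above both wild type libraries, by 0.668 percentage points between the means. Over the 4 family shares and 4 ratios tested, the lowest exact permutation p was 0.33, the smallest that 2 against 2 libraries allow, and it was reached by the BK share, the SK share and the ratio of Kcnn2 to Kcnn3. Adjusted over these 8 tests, none came below 0.889. The BK share above includes Kcnmb4, an accessory subunit with no pore. Among the pore-forming members alone, the mean shares over the 4 libraries were 35.9% (BK), 32.9% (KCNQ), 20.6% (Slack) and 10.6% (SK).

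**Figure D2:**
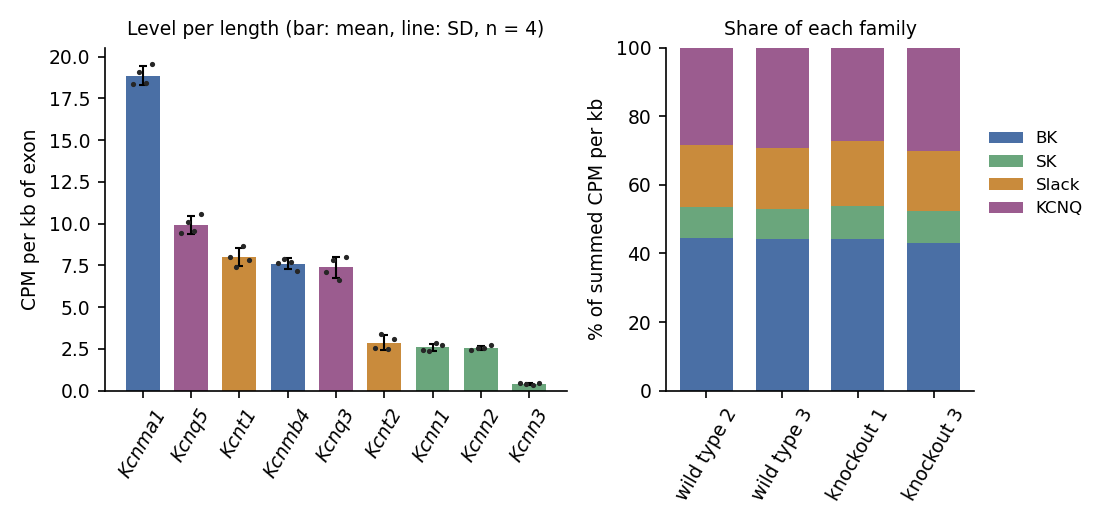
Left, mean CPM per kilobase of exon of each gene over the 4 libraries (bars; lines: SD; dots: libraries), coloured by family. Right, share of each family in the summed CPM per kilobase, per library. Kcnma1 stands at 18.9 and Kcnn3 at 0.419 CPM per kilobase. The BK share, which includes the accessory subunit gene Kcnmb4, lies between 43.0% and 44.5% in every library.

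In the test across all genes, 0 of the 9 members passed the threshold of 0.05 (edgeR, Benjamini-Hochberg over all genes), and each had an adjusted p of 0.998. Over all 12449 genes 0.0321% passed. At an unadjusted p under 0.05 the members again numbered 0, where 3.23% of all tested genes fell, and the counts were 0 by DESeq2 and by limma voom as well. Of the members 5 were higher and 4 lower in knockout, with a median log2 fold change of 0.02. Their median absolute log2 fold change was 0.0986, beside 0.0872 over all tested genes. A p that misses the threshold does not show equal levels: the 95% intervals, which borrow their spread from all genes, have upper bounds from 1.12-fold for Kcnma1 and Kcnq3 to 1.46-fold for Kcnn1. The lower bounds of these intervals ran from 0.591-fold for Kcnn3 to 0.942-fold for Kcnt1.

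**Figure D3:**
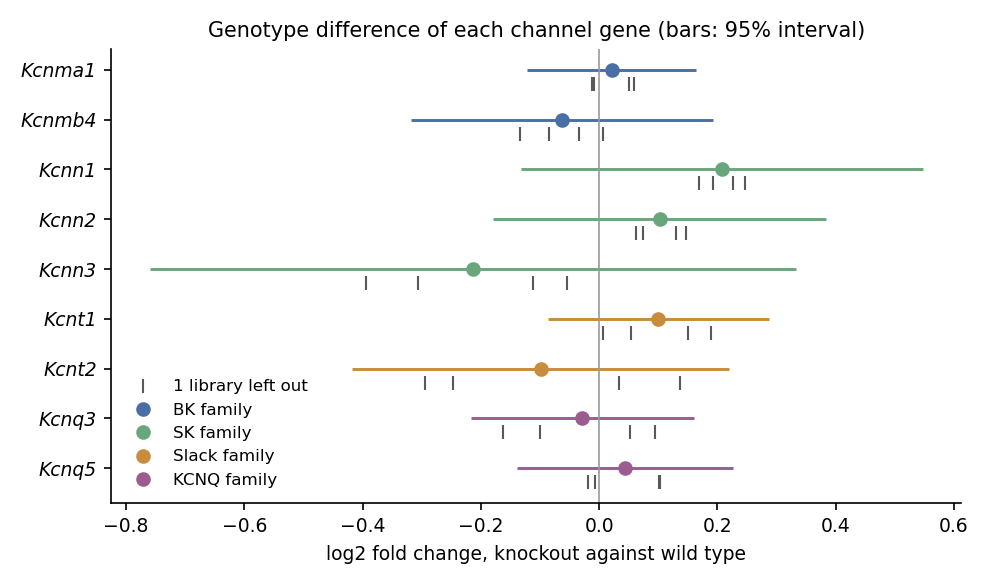
Log2 fold change of knockout against wild type for each gene (dots, coloured by family), with 95% intervals (lines) and the values with a single library left out (grey ticks). Every interval includes 0, from the narrow interval of Kcnma1 to that of Kcnn3, which runs from −0.76 to 0.33.

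For 7 of the 9 members the libraries of at least 1 genotype differed more from each other than the genotype means did, the exceptions being Kcnn1 and Kcnn2. For 5 (Kcnma1, Kcnt1, Kcnt2, Kcnq3 and Kcnq5) this held within both genotypes. The same held for 80.6% of all tested genes in at least 1 genotype and for 47.2% in both, so these counts do not set the members apart. In Kcnma1, Kcnt2, Kcnq3 and Kcnq5, wild type replicate 2 and knockout replicate 1 both lay below wild type replicate 3 and knockout replicate 3, and in Kcnt1 both lay above them. Over all tested genes 20.9% showed the first order and 20.3% the second, 41.2% in all. Among the partner genes, Akap5, an anchoring protein that brings kinases to KCNQ channels, showed the order of Kcnma1, with 122 and 150 CPM in wild type against 111 and 165 CPM in knockout. What sets these libraries apart was not tested, and no label gives a batch.

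Calcium entry and release genes near BK and SK channels completed the pathway. All 14 listed genes were tested, 7 higher and 7 lower in knockout, with 0 past the threshold. Cacna1a, the P/Q-type channel gene known to feed BK channels, stood at 570 and 591 CPM in wild type against 574 and 602 CPM in knockout (log2 fold change 0.02, SE 0.07). Itpr1, the calcium release channel of the endoplasmic reticulum, had a log2 fold change of 0.01 (SE 0.06). The T-type channel gene Cacna1h, with 22.8 and 23.9 CPM in wild type against 14.3 and 14.1 CPM in knockout, had the smallest p of the list; its log2 fold change of −0.72 (SE 0.14) came close to the threshold without passing (adjusted p = 0.052 by edgeR). Cacna1i came next at −0.12 (SE 0.08).

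Over the 6 partner lists together, 52 of 65 genes were tested, 26 higher and 26 lower in knockout. Their genotypes did not overlap for 16, again near the background of 30.2%, and 0 passed. At an unadjusted p under 0.05 were 3: Cacna1h, Scn2b and Sptbn4. Of the fragile X proteins other than Fxr1, Fmr1 stood at 112 and 113 CPM in wild type against 109 and 119 CPM in knockout, and Fxr2 at 107 and 105 CPM in wild type against 117 and 120 CPM in knockout (log2 fold change 0.16, SE 0.08). Neither passed.

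**Figure D4:**
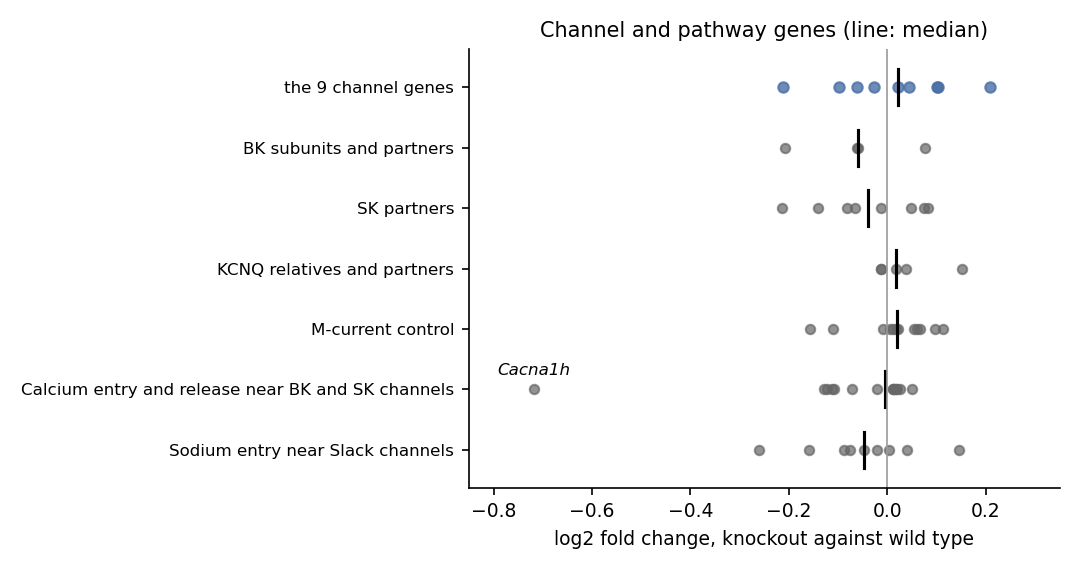
Log2 fold change of knockout against wild type for the 9 channel genes (blue) and for the tested genes of the 6 partner lists (grey), one dot per gene, with the median of each row as a black line. The row medians lie between −0.06 and 0.02, and Cacna1h at −0.72 stands apart.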

How the data were processed

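Ribosome-bound RNA was pulled down and sequenced with a SMARTer stranded kit, per the labels' protocols. Per the submitters' processing notes the aligner was STAR and the build mm10; the counter, annotation and strand setting: not given in the sources used here. The deposited table holds raw, unnormalized counts by gene symbol. A column was used where its name fits a single sample's title; 2 were not used, as they repeat 1 title between them. Replicates were numbered in accession order and pair nothing.

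Counts were fitted in R 4.3.3 with edgeR 4.0.16 (TMM, filterByExpr, robust quasi-likelihood, Benjamini-Hochberg over all genes, threshold 0.05), and the fit was tested on simulated data. SE is the log2 fold change divided by the root of F; 95% intervals use its t quantile. CPM uses library totals. Lengths, coordinates and coding sequences come from GENCODE M21. Alternatives were DESeq2 1.42.0, limma 3.58.1 voom, other scalings, filters, lengths and each library left out. The text names all 9 members, relatives in the same channel families (some are not reported here), the 2 smallest p of each partner list and some genes chosen after their values were seen. Members and lists were chosen with earlier results of these data known.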

Additional observations from a re-analysis of the deposited data

How the results depend on the processing

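Over 11 alternatives, 0 members passed the threshold in any, including each library left out. Of 98 recomputed log2 fold changes of members, 89 kept their direction, with Kcnn1, Kcnn2, Kcnn3 and Kcnt1 never turning. All 9 that turned came from leaving out a library. With each library left out in turn the value of Kcnma1 ranged from −0.0128 to 0.0593, being −0.00857 without knockout replicate 3. That of Kcnq5 ranged from −0.0187 to 0.104, being −0.00717 without wild type replicate 2. Kcnmb4 ranged from −0.134 to 0.00696, Kcnt2 from −0.294 to 0.137 (0.0342 without knockout replicate 1) and Kcnq3 from −0.162 to 0.0936 (0.0529 without wild type replicate 3). The count of 4 genes past the threshold over all genes became 1 with library totals, 13 with no filter on low counts and 2 by DESeq2. It ranged from 9 to 48 with a library left out, where the lone library of a genotype is assumed to vary like the other genotype. The knockout minus wild type log2 ratio of Kcnmb4 to Kcnma1 ranged from −0.184 to 0.0155 on leaving out libraries, and that of Kcnt2 to Kcnt1 from −0.451 to 0.0786 (0.0461 without knockout replicate 1). Without division by gene length BK took 52.2%, SK 5.37% and Slack 14.5% of the set. With the longest transcript the shares were 49.1% (BK), 10.1% (SK), 17.3% (Slack) and 23.5% (KCNQ). What causes the shifts between libraries was not tested. With at least 5 CPM in 2 libraries Kcnn3 did not enter the test. No paired analysis was possible because replicate numbers come from accession order. At these totals genes of a few CPM, such as Kcnn3, have large counting errors.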
